A study of Homo sapiens with 6 samples.

Results

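The genes described here are 10 regulators of the epithelial-mesenchymal transition (EMT), taken by gene symbol from the 60660 genes of the count tables. Of these, 6 are transcription factors that drive EMT (ZEB1, ZEB2, SNAI1, SNAI2, TWIST1 and TWIST2), and 4 are gatekeepers of the epithelial state (ESRP1, ESRP2, GRHL2 and OVOL2). They were measured by poly-A RNA-sequencing in 12Z cells, an established epithelial cell line from endometriosis, the growth of endometrium-like tissue outside the uterus. Control cells (n = 3) received a non-targeting control siRNA. Knockdown cells (n = 3) received siRNA LINC01133a at 10 nM, which is directed against the long noncoding RNA LINC01133. Both groups were transfected with Lipofectamine RNAiMAX and lysed after 72 h. The paper describes 3 biological replicates per group, all from 1 cell line, and a single siRNA was used, so an effect of losing LINC01133 and an effect of this particular oligonucleotide cannot be told apart in these libraries.

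EMT is the program by which epithelial cells loosen their junctions, lose apical-basal polarity and take on a migratory, mesenchymal shape. ZEB and SNAIL proteins are zinc finger repressors that bind E-box sequences, among them those of the E-cadherin gene CDH1, while TWIST proteins are basic helix-loop-helix (bHLH) factors that bind E-boxes as dimers. On the other side, ESRP1 and ESRP2 direct epithelial patterns of alternative splicing, GRHL2 activates genes of epithelial junctions, and OVOL2 represses the ZEB genes. The ZEB factors and the microRNAs of the miR-200 family repress each other, a loop known for holding cells in either state.

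The small RNAs that bear on these genes are shown first. The seed, bases 2 to 8, pairs with target transcripts and is in capitals. Of the 5 miR-200 microRNAs, 3 share 1 seed and the other 2 share another, and the mature sequences are those of RefSeq for GRCh38. The duplex of siRNA LINC01133a is shown because a siRNA can also act through its seed.
miR-200b-3p: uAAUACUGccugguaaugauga
miR-200c-3p: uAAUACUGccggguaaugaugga
miR-429: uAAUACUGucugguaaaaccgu
miR-200a-3p: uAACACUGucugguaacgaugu
miR-141-3p: uAACACUGucugguaaagaugg
siRNA LINC01133a, antisense strand: uCCAUUCUcagguaacuucaa
siRNA LINC01133a, sense strand: gAAGUUACcugagaauggatt

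The 3′ UTR of the canonical ZEB1 transcript of GENCODE v44 (2540 bases) held 9 matches to the miR-200 seeds, 6 to the first seed (CAGTATT) and 3 to the second (CAGTGTT). The ZEB2 3′ UTR (5370 bases) also held 9, of which 5 were to the first and 4 to the second seed. Among tested genes with a 3′ UTR between 0.8 and 1.2 times as long, 28.8% had at least 1 CAGTATT for ZEB1 and 45.6% for ZEB2, with averages of 0.350 and 0.639 matches. For CAGTGTT, the shares were 29.8% for ZEB1 and 52.6% for ZEB2, with averages of 0.356 and 0.781 matches. In ZEB2, 8 of the 9 matches were followed by an A, which makes an 8-base match, against 4 of 9 in ZEB1. The matches began between 369 and 1964 bases after the stop codon in ZEB1 and between 208 and 1825 bases in ZEB2. Examples of 8-base matches are given on the transcript strand of GRCh38, with the 7 bases that pair with the seed in capitals. They lie at chr10:31527625-31527644, chr10:31528499-31528518 and chr10:31528789-31528808 on the plus strand for ZEB1, and at chr2:144388985-144389004, chr2:144388627-144388646 and chr2:144389232-144389251 on the minus strand for ZEB2.
ZEB1, first seed: tatcttatCAGTATTatcac
ZEB1, first seed: ttacctatCAGTATTatttt
ZEB1, second seed: tgatttaaCAGTGTTatgtt
ZEB2, first seed: caatgcatCAGTATTatgat
ZEB2, first seed: acccatgtCAGTATTagaag
ZEB2, second seed: attttgtaCAGTGTTaaggc

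**Figure D1:**
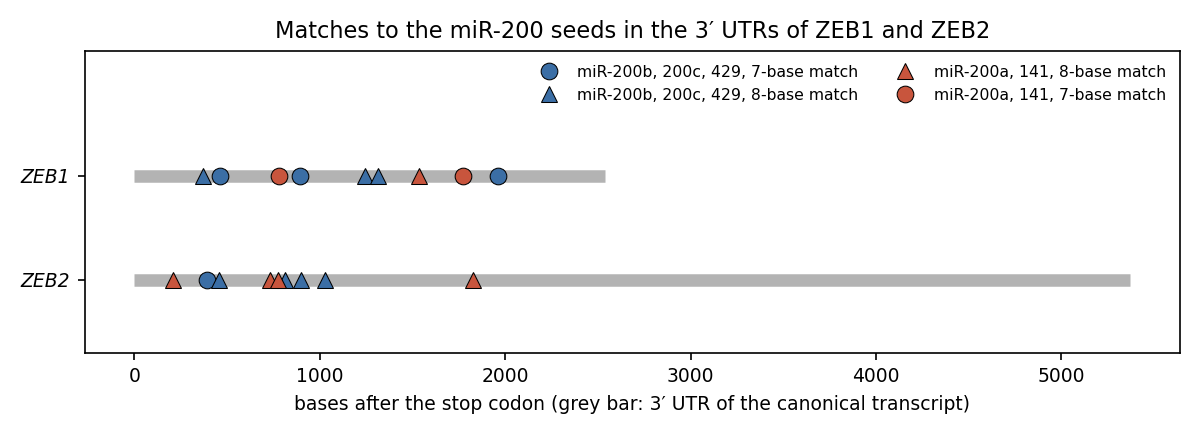
Positions of matches to the miR-200 seeds along the 3′ UTRs of the canonical ZEB1 and ZEB2 transcripts, in bases after the stop codon. Triangles are 8-base and circles 7-base matches, blue for the seed of miR-200b, miR-200c and miR-429 and red for that of miR-200a and miR-141; each UTR carries 9 matches, and those of ZEB2 end at base 1825 of 5370.

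The host transcript of miR-200c and miR-141, MIR200CHG, had 0 counts in all 6 libraries. With 194269637 counts on genes in all, 0 counts allow up to 0.0154 CPM, the count scaled to the total on genes (3 counts, counting error only). The gene entries of the microRNAs themselves were close to empty, with 2 counts for MIR429, 1 for MIR200A and 0 for MIR200B, MIR200C and MIR141 over all libraries. These are counts of poly-A RNA over the genes, and mature microRNAs were not measured by this assay. In the RefSeq promoter of MIR200CHG, from 250 bases before to 50 after the start site, the E-box word CACCTG was present once, as it or its reverse complement CAGGTG was in 20.6% of 35116 promoters of this length.

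Neither strand of the siRNA had a seed match in the 3′ UTR of ZEB1, ZEB2, SNAI1, SNAI2, TWIST1, ESRP2 or OVOL2, counting AGAATGG for the antisense and GTAACTT for the sense strand. The 3′ UTR of TWIST2 (728 bases) held 1 match to the seed of the sense strand, which occurs in 5.41% of 1294 3′ UTRs of similar length. ESRP1 and GRHL2 each held 1 match to the sense strand seed as well. For the miR-200 seeds, the members other than the ZEB genes held 1 match in SNAI2, 2 in ESRP1, 1 in GRHL2 and 0 in the rest. The TWIST2 match lies at chr2:238909884-238909903 on the plus strand.
TWIST2, sense strand seed: tcgagtctGTAACTTctgaa

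The libraries held 27742562 to 37551194 counts on genes. The target, LINC01133, stood at 813, 818 and 837 normalized counts in control and at 130, 131 and 138 in knockdown cells, so that 16.2% of its level remained. Knockdown was compared with control for 15155 genes that passed a filter on low counts, using the quasi-likelihood method of edgeR, with p-values adjusted by Benjamini-Hochberg across them all, and a gene passed the test at an adjusted p under 0.05. Of all genes tested, 48.3% passed, 23.3% higher and 25.0% lower in knockdown cells. The normalization affected this division, since among genes that passed, 48.28% were higher with TMM factors and 61.53% with library size alone, which moved the median log2 fold change of all genes from 0.0032 to 0.065. Following the cutoffs of the study, genes that passed the test with more than a 1.5 fold change were called differentially expressed (DE), which were 11.7% of genes tested. For 57.3% of genes, the normalized counts of the 2 groups did not overlap.

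12Z cells carried both epithelial and mesenchymal transcripts. The keratin KRT8, a marker of simple epithelia, had 57471 to 112611 counts per library, whereas the epithelial surface protein EPCAM had 9 to 26 and the tight junction protein CLDN4 had 4 to 18. The collagens COL1A1 and COL3A1, markers of fibroblasts, had 70447 to 99475 and 113520 to 152230 counts. Summed over 8 epithelial markers, the normalized counts were 200642 to 211646 in control and 128463 to 134359 in knockdown libraries. Of these 8, 5 were lower and 0 higher in knockdown cells. The 5 included KRT7 and KRT19, whose reduction the paper did not reproduce in follow-up measurements. For this and the next marker lists, the shares of all genes tested were 25.0% lower and 23.3% higher. Over 8 fibroblast or stromal markers the sums were 236548 to 257640 and 237753 to 241028, with 5 of 8 lower and 0 higher. Most of these sums came from COL1A1 and COL3A1, which did not pass the test, so they say little about the 5 that fell. The T cell gene CD3E was at 0 and the endothelial gene PECAM1 at 0 to 3 counts, while CD14 (770 to 1829 counts) and KDR (866 to 1599 counts) were present. Over 4 endothelial markers the sums were 1590 to 1623 in control and 1112 to 1184 in knockdown libraries, with 1 higher and 1 lower of 3 tested, and over 4 immune markers they were 1618 to 1825 and 846 to 906, with 1 lower of 2 tested. In bulk libraries, a smaller share of cells of a type and less RNA per cell cannot be told apart, and the part of these markers in the results was not tested.

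In 12Z cells, all 6 EMT transcription factors were expressed, and 4 of them, ZEB1, SNAI1, SNAI2 and TWIST2, were lower after knockdown of LINC01133. None was higher. The call of TWIST2 did not hold with DESeq2, without control replicate 1 or without knockdown replicate 1, which left 3 of the 6 lower. The factors that passed the test fell to between 67.3% and 81.0% of the control level, and 0 were DE at the cutoffs, against 11.7% of all genes. Among the gatekeepers, ESRP2 was detected at a low level and did not pass the test, ESRP1 had 2 counts in all libraries together, and GRHL2 and OVOL2 were absent from the counts, with 0 in every library. Of the 7 genes of the 10 that passed the filter on low counts, 4 passed the test, against 48.3% of all genes, 4 of 7 were lower, against 25.0%, and 0 were higher, against 23.3%. The 4 that passed were also those whose groups did not overlap, which held for 57.3% of all genes. The median log2 fold change of the 6 factors was -0.40, beside 0.0032 for all genes tested.

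**Figure D2:**
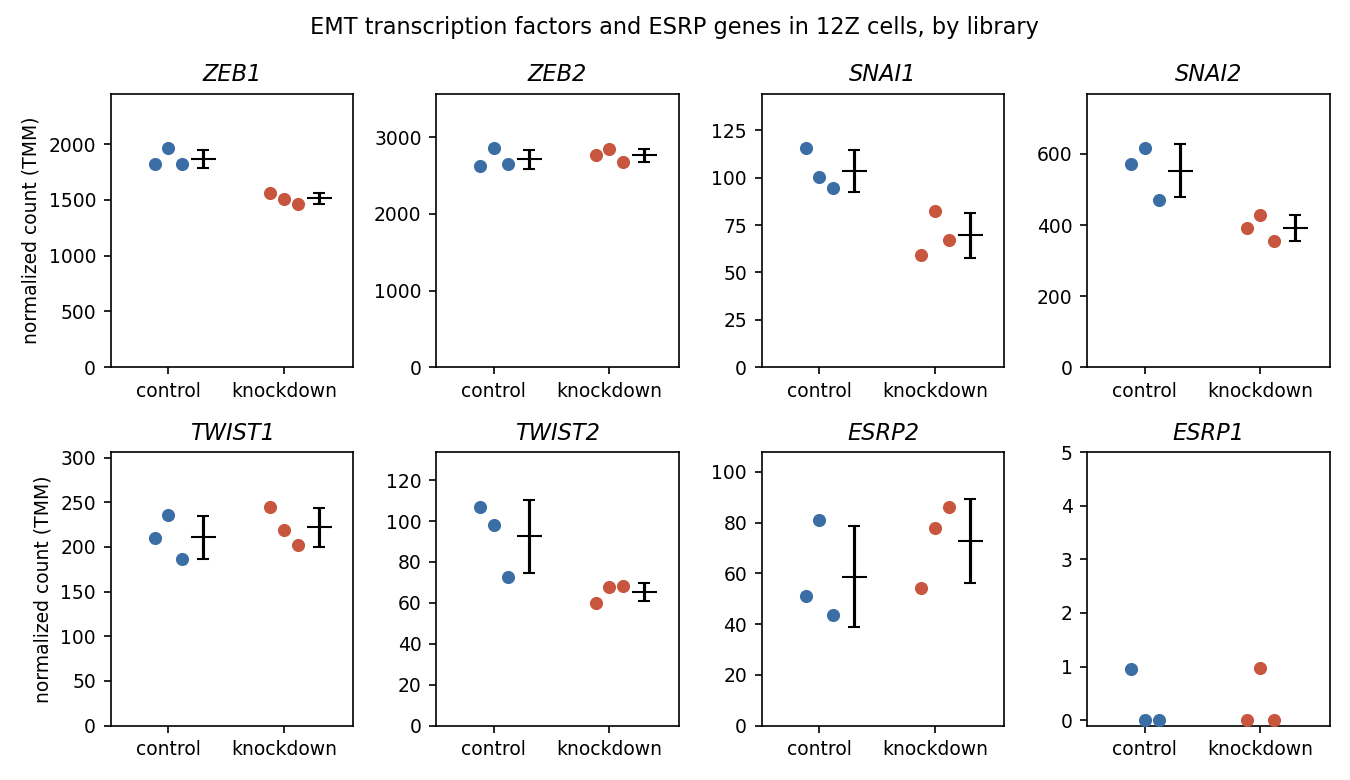
Normalized counts (TMM) of the 6 EMT transcription factors and of the ESRP genes in each library. Points are the 3 libraries of a group (blue control, red knockdown) and black bars the mean ± SD, not drawn for ESRP1. For ZEB1, SNAI1, SNAI2 and TWIST2 every knockdown point lies below every control point, and for ZEB2, TWIST1 and ESRP2 the groups overlap.

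Per base of transcript, the ZEB factors and SNAI2 were the most abundant of the 10 genes. In control cells the level, as RPKM, the count scaled to library depth and to the length of the canonical transcript, was 9.73 ± 0.427 (SD, n = 3) for ZEB1 and 9.04 ± 0.423 for ZEB2, and the ranges of these 2 over libraries overlapped. SNAI2 followed with 7.84 ± 1.06, then TWIST1 with 3.99 ± 0.464. TWIST2 with 2.13 ± 0.411 and SNAI1 with 1.87 ± 0.198 overlapped with each other. ESRP2 was lower than all 6 factors, with 0.528 ± 0.179. ZEB1 was expressed above 58.8% of 15118 tested genes with a known length, SNAI1 above 29.99% and ESRP2 above 14.4%. The order depended on the length used. With the union of all annotated exons, which for ZEB2 is 26151 instead of 9265 bases, ZEB2 was at 3.20 RPKM, next to TWIST1 at 3.26, and SNAI2 at 5.21 came after ZEB1 at 6.68.

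ZEB1 and ZEB2 are large zinc finger repressors, each with its own antisense neighbour. ZEB1 lies on chromosome 10 from 31318495 to 31529814 (GRCh38, plus strand). Its normalized count was 1823, 1963 and 1820 in control and 1565, 1510 and 1464 in knockdown libraries. All 3 knockdown libraries lay below all 3 control libraries. This gave 1869 ± 82.0 in control and 1513 ± 50.7 in knockdown cells (SD, n = 3 each). By edgeR, the log2 fold change was -0.30 (SE 0.0456, adjusted p = 1.15e-04). ZEB1 had the highest precision of the genes that fell, with a counting error of 2.28% to 2.78% per library.

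ZEB2 lies on chromosome 2 from 144364364 to 144521057 on the minus strand. It had 2623, 2856 and 2652 normalized counts in control and 2764, 2849 and 2673 in knockdown libraries. The groups overlapped, and the log2 fold change was 0.028 (SE 0.0438, adjusted p = 0.619). The ratio of the 2 paralogs within a library does not depend on the scaling between libraries. The log2 ratio of ZEB1 to ZEB2 counts was -0.52, -0.54 and -0.54 in control and -0.82, -0.92 and -0.87 in knockdown libraries. Thus ZEB1 was lower relative to ZEB2 in all 3 knockdown libraries, with a difference of -0.33 on the log2 scale. The exact two-sided permutation p was 0.1, the smallest that 3 against 3 libraries can give, and 0.15 after Benjamini-Hochberg adjustment over 3 ratios.

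The antisense RNA ZEB1-AS1, which starts beside ZEB1 on the other strand, had 51 to 88 counts per library and a log2 fold change of 0.012 (adjusted p = 0.956). ZEB2-AS1, an antisense RNA known for affecting the splicing of the ZEB2 5′ UTR, had 1 to 6 counts and was not tested. The counts were separated by strand, so these antisense reads were not added to the ZEB genes.

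SNAI1 (SNAIL) and SNAI2 (SLUG) are smaller zinc finger repressors of the same family, of which SNAI1 is known for a short-lived protein. SNAI1 lies on chromosome 20 from 49982980 to 49988886 (plus strand). It had 116, 100.3 and 94.3 normalized counts in control and 59.3, 82.5 and 66.9 in knockdown libraries. The groups did not overlap, although the highest knockdown library came near the lowest control library. The log2 fold change was -0.58 (SE 0.154, adjusted p = 0.00718), close to the cutoff for DE, with a counting error of 9.05% to 13.02% per library. SNAI1 passed this cutoff without control replicate 2 (-0.60), control replicate 3 (-0.64) or knockdown replicate 2 (-0.72). The change was smaller without control replicate 1 (-0.49, adjusted p = 0.0407) and without knockdown replicate 1 (-0.46, adjusted p = 0.0477).

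SNAI2 lies on chromosome 8 from 48917598 to 48921740 (minus strand) and was the more abundant of the pair. It had 573, 616 and 471 normalized counts in control and 393, 428 and 354 in knockdown libraries, again without overlap. The means were 553 ± 74.8 and 392 ± 37.1 as mean ± SD (log2 fold change -0.49, SE 0.0983, adjusted p = 0.00102). Without control replicate 3 it was -0.59 and reached the cutoff for DE. Both SNAIL genes were thus lower, and their ratio did not separate the groups. The log2 ratio of SNAI1 to SNAI2 was between -2.61 and -2.31 in control and between -2.72 and -2.37 in knockdown libraries (difference -0.083, exact two-sided permutation p = 0.5, adjusted 0.5).

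Of the TWIST factors, TWIST2 passed the test and TWIST1 did not. TWIST1 lies on chromosome 7 from 19020991 to 19117636 (minus strand). It had 210.2, 235 and 187 normalized counts in control and 245, 219 and 202 in knockdown libraries. The groups overlapped (log2 fold change 0.086, SE 0.109, adjusted p = 0.544). TWIST2 lies on chromosome 2 from 238848032 to 238910534 (plus strand). It had 107, 98.0 and 72.5 normalized counts in control and 60.2, 68.0 and 68.1 in knockdown libraries. The groups did not overlap, but control replicate 3 came close to the knockdown libraries.

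The log2 fold change of TWIST2 was -0.51 (SE 0.164, adjusted p = 0.0208). Among the genes that fell, it had the largest adjusted p and lost the call with DESeq2 (-0.51, adjusted p = 0.0620), without control replicate 1 (-0.38, adjusted p = 0.107) and without knockdown replicate 1 (-0.44, adjusted p = 0.0868). Without control replicate 3 it was DE (-0.66). TWIST1 relative to TWIST2 was higher in every knockdown library. The log2 ratio was 0.97, 1.26 and 1.36 in control and 2.02, 1.68 and 1.56 in knockdown libraries (difference 0.56, exact two-sided permutation p = 0.1, adjusted 0.15). Reads mapping to more than 1 place were dropped by the authors, so stretches identical between paralogs can be counted incompletely.

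**Figure D3:**
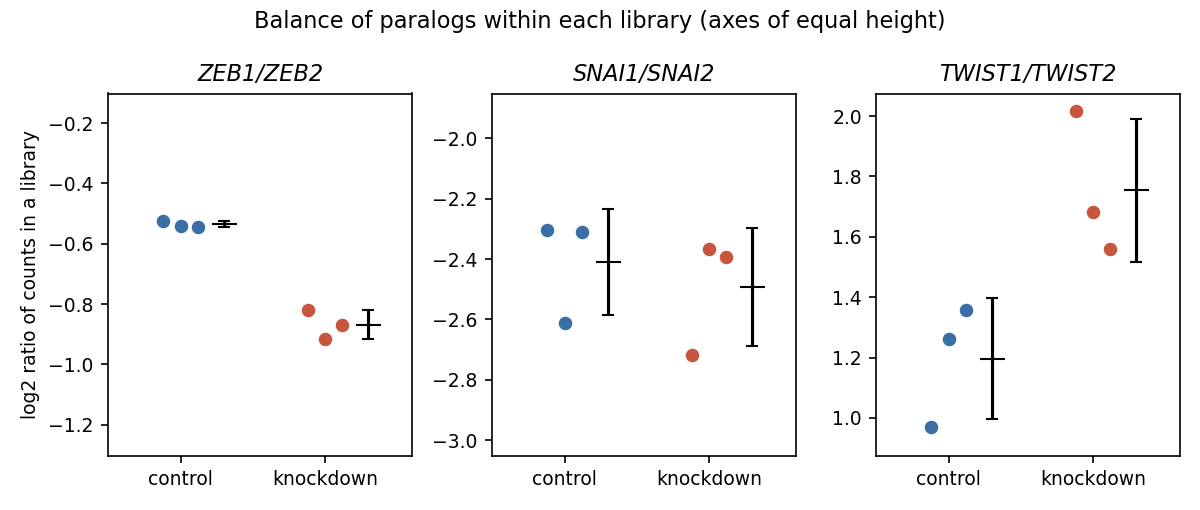
Log2 ratio of the counts of 2 paralogs within each library, with 0.5 added to each count. Points are libraries (blue control, red knockdown), black bars the mean ± SD, and the 3 axes have equal height. The ZEB1/ZEB2 ratio is lower and the TWIST1/TWIST2 ratio higher in all knockdown libraries, and the SNAI1/SNAI2 ratios overlap.

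Summed over the 6 factors, the level was 34.9, 37.0 and 31.9 RPKM in control and 30.03, 30.7 and 28.2 RPKM in knockdown libraries. The sums did not overlap. With 4 factors lower, the shares of the 2 that did not pass the test were larger in knockdown cells, as follows by arithmetic. Their own levels in control and knockdown cells were 9.04 and 9.21 RPKM for ZEB2 and 3.99 and 4.21 RPKM for TWIST1. ZEB2 made up 26.2 ± 1.38% of the sum in control and 31.1 ± 0.492% in knockdown cells, and TWIST1 11.5 ± 0.495% and 14.2 ± 1.09% (SD, n = 3 each). The share of SNAI2 was 22.6 ± 1.47% in control and 18.7 ± 1.01% in knockdown cells, and that of ZEB1 was 28.2 ± 1.34% and 26.6 ± 0.836%. These shares use the length of the canonical transcript and were not tested. With the union of annotated exons, the share of ZEB2 was 14.9 ± 0.903% in control and 18.1 ± 0.349% in knockdown cells, and that of TWIST1 15.1 ± 0.612% and 19.1 ± 1.43%.

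**Figure D4:**
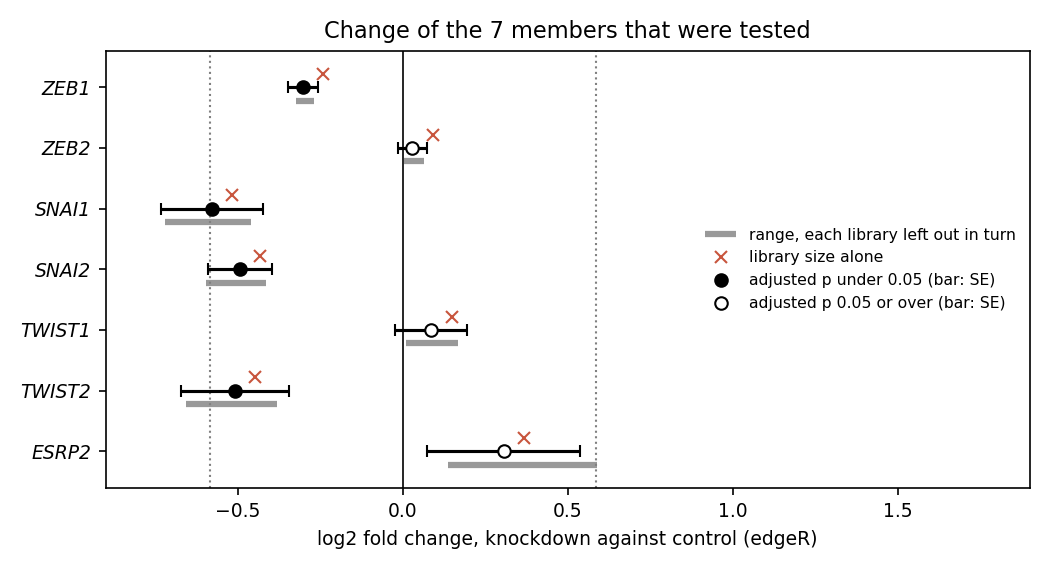
Log2 fold changes of the 7 genes that were tested, knockdown against control, with their standard errors. Filled circles had an adjusted p under 0.05, grey bars span the values with each library left out in turn, red crosses use library size alone, and dotted lines mark the fold change of 1.5. ZEB1, SNAI1, SNAI2 and TWIST2 lie left of 0 with all of these, from -0.72 for SNAI1 to -0.24 for ZEB1.

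Of the gatekeepers, ESRP2, an RNA-binding protein that promotes epithelial exon choice, was the only one with more than 1 count in a library. It lies on chromosome 16 from 68229033 to 68238102 (minus strand), and reads over genes that share its exons on that strand (MIR6773 and ENSG00000262160 in GENCODE v44) would be counted for neither gene. It had 51.1, 81.1 and 43.5 normalized counts in control and 54.3, 77.7 and 86.2 in knockdown libraries. The groups overlapped, and the spread between libraries was the largest among the 7 genes tested, 33.9% of the mean in control cells. The log2 fold change was 0.31 (SE 0.232, adjusted p = 0.300). Without control replicate 2 it was 0.59, with an adjusted p of 0.0271, so this single library decided the call.

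The other gatekeepers were not detectable as expressed genes. ESRP1, the paralog of ESRP2 (chromosome 8, from 94641074 to 94707466), had 1 count in control replicate 1 and 1 in knockdown replicate 2, which is 0.0103 CPM over all libraries. GRHL2, an activator of junction genes (chromosome 8, from 101492439 to 101669726), and OVOL2, a zinc finger repressor of ZEB genes (chromosome 20, from 17956979 to 18059188), had 0 counts in all 6 libraries. For each of them, 0 counts allow up to 0.0154 CPM over all libraries, or 0.0799 in the deepest and 0.108 in the shallowest library (3 counts). Exons of OVOL2 overlap those of SNX5 on the same strand in GENCODE v44, where reads would be assigned to neither gene. These 3 genes did not pass the filter on low counts, and no fold change is given for them.

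Of 18 other epithelial transcription factors, 13 had fewer than 10 counts in every library, among them OVOL1 (1 count in all) and ELF3 (3 to 8 counts). The 5 that were tested divided into 2 higher, 2 lower and 1 that did not pass, or 3 higher and 2 lower with library size alone. Of all genes tested, 23.3% were higher and 25.0% lower. KLF4, a zinc finger factor of epithelia and of pluripotent cells, rose from 59.9 ± 9.48 to 98.3 ± 13.7 normalized counts (log2 fold change 0.73, adjusted p = 0.00223). TFAP2C, an AP-2 factor of surface ectoderm, fell from 82.0 ± 4.53 to 56.6 ± 3.13 (-0.54, adjusted p = 0.00660). The other 2 that passed, named after their values were seen, were far more abundant. KLF5, a zinc finger factor of epithelia, fell from 2144 ± 95.2 to 1513 ± 33.8 normalized counts (-0.50, adjusted p = 9.74e-07), and TFAP2A, another AP-2 factor, rose from 4324 ± 308 to 5114 ± 90.5 (0.24, adjusted p = 9.74e-04). GRHL1, the paralog of GRHL2, was present with 180 ± 6.15 and 207 ± 19.4 normalized counts (0.20, adjusted p = 0.113).

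Other EMT transcription factors, like all genes tested, held both directions. Of 16 listed, 9 were tested, of which 2 were higher and 3 lower, beside 23.3% and 25.0% of all genes. The median log2 fold change was -0.12. HMGA2, a chromatin factor known to induce SNAI1, SNAI2 and TWIST1, rose from 160 ± 25.2 to 251 ± 38.5 normalized counts (0.67, adjusted p = 0.00105). The forkhead factor FOXC2 fell from 21.7 ± 3.07 to 10.3 ± 3.07 (-1.10, adjusted p = 0.00872), at low counts, and PRRX2, a homeobox factor of mesenchyme, fell from 47.7 ± 6.76 to 23.7 ± 0.709 (-1.02, adjusted p = 8.87e-04). The adjusted p of FOXC2 reached 0.0596 with 1 library left out and was 0.0632 with DESeq2. PRRX1 had 0 counts, and the third SNAIL gene, SNAI3, had 2 to 9 counts and was not tested.

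TWIST proteins act as dimers with E proteins, which ID proteins capture. Of 10 listed partners and inhibitors, 8 were tested, of which 1 was higher and 3 were lower, beside 23.3% and 25.0% of all genes. The inhibitor ID1 fell from 3137 ± 196 to 1969 ± 51.4 normalized counts (-0.67, adjusted p = 1.41e-07), while ID4 rose from 3063 ± 86.7 to 4813 ± 95.8 (0.65, adjusted p = 2.46e-08). Among the E proteins, TCF4 fell slightly (-0.24, adjusted p = 3.68e-04), and the values were -0.086 for TCF3 (adjusted p = 0.0912) and 0.082 for TCF12 (adjusted p = 0.0896). With library size alone TCF12 was 0.14 and passed the test (adjusted p = 0.00500). The median of the list was -0.030. With library size alone it was 0.032, with 2 higher and 3 lower.

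ZEB and SNAIL factors repress through corepressor complexes, whose genes were expressed and, like all genes tested, mixed in direction. All 18 listed were tested. Of these, 5 were higher and 6 lower, beside 23.3% and 25.0% of all genes, with a median of -0.0040. With library size alone, 7 were higher and 4 lower with a median of 0.058, so the balance of directions turned with the scaling. The histone deacetylase HDAC1 rose from 4702 ± 374 to 8287 ± 136 normalized counts (0.82, adjusted p = 3.77e-08), and RCOR1 (CoREST), a scaffold of the demethylase KDM1A, fell from 2907 ± 62.9 to 1778 ± 12.2 (-0.71, adjusted p = 1.20e-08). KDM1A itself (-0.22, adjusted p = 2.23e-04) and CTBP2, a corepressor bound by ZEB proteins (-0.24, adjusted p = 3.05e-04), also fell, and CTBP1 was 0.098 (adjusted p = 0.126). With library size alone, CTBP1 was 0.16 and passed the test (adjusted p = 0.0205).

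The stability of SNAIL protein is set by kinases and ubiquitin ligases. All 22 listed regulators of SNAIL and ZEB protein stability were tested. Of these, 7 were higher and 6 lower, beside 23.3% and 25.0% of all genes, with a median of 0.028. Scaling by library size alone gave 9 higher and 5 lower, with a median of 0.090. BTRC, the F-box protein that recognises phosphorylated SNAI1, fell from 2168 ± 99.1 to 1326 ± 33.4 normalized counts (-0.71, adjusted p = 5.25e-08). FBXL14, another F-box protein for SNAI1, rose from 133 ± 4.13 to 187 ± 24.7 (0.49, adjusted p = 0.00331), and so did GSK3B, the kinase that marks SNAI1 for BTRC (0.21, adjusted p = 4.74e-04). SNAI1 protein was not measured in these files.

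Of 15 other splicing regulators of EMT, 13 were tested, and RBFOX1 (0 to 13 counts) and RBFOX3 (0 to 2 counts) were not. The tested genes divided into 2 higher and 6 lower, beside 23.3% and 25.0% of all genes, with a median of -0.069. When library size alone was used, 5 were higher and 3 lower with a median of -0.0068, so the balance of directions depended on the scaling. MBNL1, a splicing factor of the muscleblind family, fell from 6993 ± 313 to 3943 ± 21.5 normalized counts (-0.83, adjusted p = 4.86e-09) and RBM47, an RNA-binding protein of epithelia, from 3217 ± 56.3 to 1880 ± 68.3 (-0.78, adjusted p = 9.67e-09). RBFOX2, which promotes mesenchymal exon choice, rose from 1941 ± 24.7 to 2209 ± 52.6 (0.19, adjusted p = 0.00131). QKI, another regulator of mesenchymal splicing, was 0.071 (adjusted p = 0.119), and it passed the test with library size alone (0.13, adjusted p = 0.00459).

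Genes with exons under ESRP control were themselves expressed, but gene counts do not show which exons were used. Of 16 listed, 14 were tested, 5 were higher and 3 lower, beside 23.3% and 25.0% of all genes, and the median was -0.0054. Scaling by library size alone gave 6 higher and 2 lower, with a median of 0.057. MPRIP, a myosin phosphatase partner, rose from 5696 ± 174 to 8926 ± 174 normalized counts (0.65, adjusted p = 2.18e-08), and ENAH, an actin regulator, fell from 9903 ± 394 to 6845 ± 130 (-0.53, adjusted p = 1.74e-07). The hyaluronan receptor CD44 fell by 0.19 on the log2 scale (adjusted p = 0.0181) and lost the call with library size alone (-0.13, adjusted p = 0.0718) and with 1 library left out (adjusted p up to 0.0836). CTNND1 (p120 catenin) was -0.059 (adjusted p = 0.506). FGFR2, whose IIIb exon is the best known ESRP target, had 0 to 3 counts.

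Among genes that ZEB and SNAIL factors repress or GRHL2 activates, CDH1 had the largest change. Of 28 listed epithelial targets of ZEB, SNAIL and GRHL2 that are not among the 10 genes, 19 were tested. Of these, 1 was higher and 6 were lower, beside 23.3% and 25.0% of all genes, and 12 did not pass, with a median of -0.16. With library size alone, 3 of the 19 were higher and 5 lower, with a median of -0.098. E-cadherin, CDH1, the main adhesion protein of epithelial junctions, had 389 to 403 counts in control and 88 to 113 in knockdown libraries (log2 fold change -2.02, adjusted p = 3.91e-08). The paper also reports loss of CDH1 by other assays, and a smaller reduction of its transcript with another siRNA of lower efficiency. The junction protein CGN (cingulin) fell from 356 ± 20.2 to 206 ± 22.5 normalized counts (-0.80, adjusted p = 1.35e-05). EPCAM was 0.31 (adjusted p = 0.463) and CLDN4 was -0.70 (adjusted p = 0.126), both at low counts.

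Of 22 listed mesenchymal genes, which mark the other end of EMT, 21 were tested, 2 were higher, 9 were lower and 10 did not pass, with a median of -0.12. With library size alone, 5 were higher and 9 lower, with a median of -0.062. The growth factor receptor PDGFRA fell from 249 ± 45.9 to 86.9 ± 10.7 normalized counts (-1.52, adjusted p = 2.85e-06) and the calcium-binding protein S100A4 from 114 ± 26.5 to 45.9 ± 3.26 (-1.33, adjusted p = 6.56e-05). N-cadherin, CDH2, fell (-1.16, adjusted p = 6.80e-10), as did vimentin, VIM (-0.43, adjusted p = 4.57e-06), and fibronectin, FN1, was 0.17 (adjusted p = 0.170). The paper reports CDH2 transcript as not changed with another siRNA of lower efficiency. The 2 that rose, named after their values were seen, were ACTA2 (0.48, adjusted p = 0.00965) and MMP14 (0.13, adjusted p = 0.00745). The adjusted p of ACTA2 reached 0.0614 with 1 library left out. All these lists were described by their counts, to be read beside the 23.3% of all genes that were higher and the 25.0% that were lower.

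**Figure D5:**
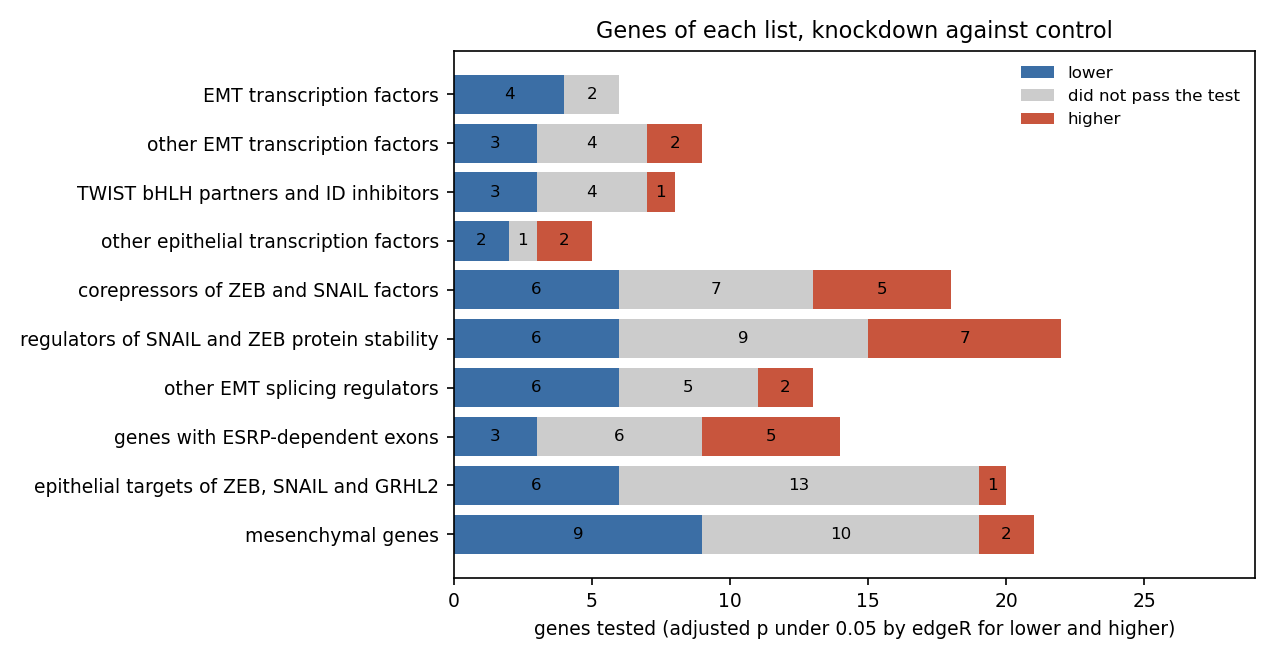
Number of tested genes of each list that were lower (blue), did not pass the test (grey) or were higher (red) in knockdown cells, by edgeR at an adjusted p under 0.05. The 6 EMT transcription factors have 4 lower and 0 higher, and the other lists hold genes of both directions. ESRP2 is counted in the list of epithelial targets here.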

How the data were processed

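RNA-sequencing of 3 control and 3 LINC01133 knockdown samples of 12Z cells was used. The authors aligned the reads with STAR 2.7.6a to GRCh38.p13 with GENCODE v36, kept uniquely mapped reads and deposited raw counts of read pairs per gene, unstranded and for each strand. SAMtools 1.10 is also named by the submitters' processing notes. The column of the strand opposite to read 1, which held 94.0% of stranded counts, was used here, and rows of unassigned reads were left out.

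Genes were filtered with filterByExpr (minimum count 10), normalized by TMM and tested with edgeR 4.0.16 (glmQLFit and glmQLFTest, R 4.3.3), by condition alone, with Benjamini-Hochberg adjustment across the genes tested. The code of the test was run on simulated counts with few planted changes, each larger than those of the 10 genes. That run does not check the normalization or the calls made here. TMM factors were 0.968 to 0.984 for control and 1.02 to 1.03 for knockdown libraries. Paralogs were compared by the log2 ratio of counts plus 0.5 with an exact permutation test. Levels per kilobase used the canonical transcripts of GENCODE v44, as did loci and 3′ UTRs, since v36 was not used here. Symbols were matched to 60463 of 60660 gene IDs.

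Named genes were the 10 members, LINC01133, key genes of each list and the 2 largest changes per list among those with an adjusted p under 0.05, and the epithelial, stromal, endothelial and immune markers. The members and lists were chosen with earlier results of these data known. Alternatives were DESeq2 1.42.0, library size alone or median-of-ratios size factors, other filters on low counts, the unstranded column, a pseudocount of 2, a replicate block, the union of annotated exons as length (chosen after seeing the data) and each library left out in turn. With 3 libraries per group, precision is given as SD or standard error. The edgeR p-values set a difference against the variation between these libraries, estimated with information shared across genes. Those of the ratios come from permuting the libraries.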

Additional observations from a re-analysis of the deposited data

Results flagged for a closer look

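The strand opposite to ZEB2 carried reads that enter no comparison above. They came to 9, 8 and 5 counts in control and 11, 14 and 13 in knockdown libraries. In CPM, the mean was 0.229 ± 0.0619 in control and 0.396 ± 0.0919 in knockdown cells (SD, n = 3 each). All 3 knockdown libraries lay above all 3 control libraries, but that is the rule by which ZEB2 was picked from the 10 genes. The share of all genes that meet this rule on the opposite strand was not counted. The strand of ZEB2 itself held 2356 to 3261 counts per library. The annotated antisense RNA ZEB2-AS1 had 1 to 6 counts in its own entry. The difference was not tested, and it rests on at most 14 reads per library. On the strand opposite to ZEB1, the groups overlapped, with 7 to 18 counts in control and 17 to 22 in knockdown libraries.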

How the results depend on the processing

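The numbers of genes that passed the test and of DE genes stayed within 1.5 times under all alternatives. The direction and call of ZEB1, ZEB2, SNAI1, SNAI2 and TWIST1 were also kept. SNAI1 kept its call narrowly, with an adjusted p of 0.0407 without control replicate 1 and 0.0477 without knockdown replicate 1. TWIST2 lost its call with DESeq2 (-0.51, adjusted p = 0.0620), so that 3 of the 6 factors remained lower, and ranged from -0.66 to -0.38 as single libraries were left out. It lost the call without control replicate 1 (adjusted p = 0.107) or knockdown replicate 1 (adjusted p = 0.0868). SNAI2 and TWIST2 passed the cutoff for DE without control replicate 3. ESRP2 lay between 0.14 and 0.59 and passed the test only without control replicate 2 (adjusted p = 0.0271). The change of the SNAI1/SNAI2 ratio lay between -0.18 and 0.030, positive without knockdown replicate 1. The cause was not tested. Samples with the same replicate number did not deviate together (correlations of -0.015, 0.0049 and 0.057). With the replicate number as a block, SNAI1 was -0.59 (adjusted p = 0.0112) and passed the cutoff for DE, and the same 4 factors were lower. Counting errors were largest for SNAI1, TWIST2 and ESRP2 among the tested members, at 9.05% to 15.4% per library. For ESRP2 the spread between control libraries was larger than that, 33.9% of the mean. ESRP1, GRHL2 and OVOL2 could not be tested.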
